A study of Drosophila melanogaster with 4 samples.

Results

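The forkhead family genes fkh, bin, slp1, slp2, croc, FoxK, FoxP, jumu and CHES-1-like were followed in RNA recovered with the poly(A)-binding protein PABP and in total RNA of adult Drosophila melanogaster. The genes were taken by symbol from a table of 17806 genes, and all 9 were found in it. The related gene foxo was left out of the set and is given separately below. RNA had been crosslinked to protein by ultraviolet light in ground whole flies, and PABP was then precipitated on beads that bind the FLAG tag (CLIP-seq). For the 2 PABP IP libraries the labelled cell type is the intestinal progenitor, a term for stem cells and their undifferentiated daughters in the gut epithelium. For the 2 input libraries, made from lysate that was not precipitated, it is all cells. Each sample was made from 200 adult flies, 100 of each sex. The labels name no strain, age, tagged allele or driver, and do not state whether IP and input libraries of one number share an extract.

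Forkhead factors bind DNA through a winged-helix domain, the forkhead box, and most of them regulate how cells acquire and keep an identity. Members of the FoxA class, to which fkh belongs, can bind their sites in closed chromatin and are known for roles in gut endoderm across animals. In the adult fly midgut fkh has been described as needed to maintain stem and progenitor cells. The other members are best known from other settings. The factor bin acts in visceral mesoderm, slp1 and slp2 in segmentation and neuroblast patterning, croc in head development, FoxK in midgut endoderm of the embryo, FoxP in neurons, and jumu and CHES-1-like in heart progenitors.

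The IP libraries held 8987420 and 10761349 gene counts and the input libraries 2464629 and 3346231, so low values were least precise in the input. The mRNA of pAbp, which encodes PABP itself, was 10.1-fold higher in the IP (log2 fold change 3.34 ± 0.18 SE). Beside the labelled cell type, 6 progenitor markers were looked at, and all 6 were higher. Their summed level was 8168 and 8924 CPM (counts relative to the TMM-scaled library size) in the IP and 105 and 106 CPM in the input. Among them, Sox21a passed the count filter only through the IP, where it was higher. The marker lists were chosen with earlier results of these data known, so they are no independent check of the label. Of 6 enterocyte markers 1 was higher and 5 were lower, and of 6 enteroendocrine markers 1 was higher and 1 lower. Over all tested genes 37.1% were called higher and 38.8% lower. With neither a mock precipitation nor progenitor total RNA among the libraries, expression in the tagged cells, PABP binding and bead background cannot be told apart in a difference from the input. In bulk RNA, fewer cells of a type and less RNA per cell cannot be told apart either. Nothing in the labels says that samples of one group came from separate fly collections, so p-values measure only their spread, which may be technical.

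The family split into a group of 5 genes with abundant reads, all higher in the IP, and a group of 4 genes with at most 7 counts in any library. The most enriched member was fkh, at 50.2-fold, followed by FoxK at 10.4-fold, CHES-1-like at 6.12-fold, FoxP at 3.34-fold and jumu at 2.28-fold. In edgeR's quasi-likelihood test, 5 of the 5 members that could be tested were called higher at a Benjamini-Hochberg adjusted p below 0.05 and 0 lower. Over all 9989 genes tested, 37.1% were called higher and 38.8% lower. The median log2 fold change was 2.61 over the 5 tested members and -0.10 over all genes tested. Members were chosen with earlier results of these data known, so these values are no independent check of the family. Both groups of libraries on their own cleared the count filter for each of the 5. In each of these 5 genes both IP libraries lay above both input libraries, as they did for 42.3% of all genes tested. Without TMM scaling, the summed level of the 9 genes was 1587 and 1634 CPM in the IP libraries and 357 and 349 CPM in the input libraries.

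**Figure D1:**
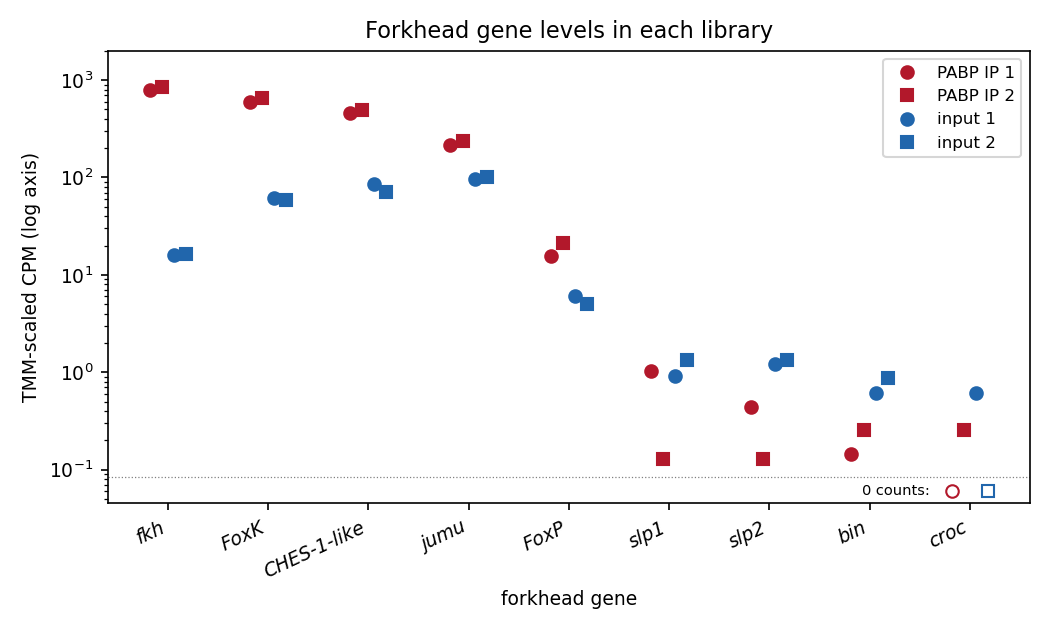
TMM-scaled CPM (log axis) of the 9 forkhead genes in each of the 4 libraries; red points are PABP IP and blue points input, and open points in the strip at the bottom had 0 counts. For fkh, FoxK, CHES-1-like, jumu and FoxP both red points lie above both blue points, while the other 4 genes lie near or below 1 CPM in all libraries.

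The FoxA gene fkh had 5432 and 6586 counts in PABP IP 1 and 2 and 53 and 74 in input 1 and 2. These are 794.5 and 840.0 CPM in the IP and 16.2 and 16.3 CPM in the input. The libraries of a group lay close together and the groups were far apart, with means of 817 ± 32.2 and 16.2 ± 0.113 CPM (SD, n = 2 each). The log2 fold change was 5.65 ± 0.15 SE (edgeR adjusted p = 1.25e-14). Only 37 of the 9989 tested genes (0.370%) had a larger log2 fold change. The summed counts gave an IP to input ratio of 50.4 with an exact 95% interval of 42.3 to 60.5, which covers counting error only, as do the other intervals here.

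FoxK, which takes part in the differentiation of the embryonic midgut, had 602 and 648 CPM in PABP IP 1 and 2 and 61.0 and 59.3 CPM in input 1 and 2. The groups did not overlap, and the log2 fold change was 3.38 ± 0.12 SE (edgeR adjusted p = 2.10e-13). For CHES-1-like, a FoxN-class gene, the libraries gave 454 and 498 CPM in the IP and 85.0 and 71.4 CPM in the input. Its log2 fold change was 2.61 ± 0.12 SE (edgeR adjusted p = 3.62e-12), again with no overlap between the groups. A long noncoding RNA gene, lncRNA:CR43287, lies wholly inside CHES-1-like and had 0 counts in all 4 libraries. The counting settings were not found, so it is unknown whether reads of this stretch entered the CHES-1-like count.

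The other FoxN-class gene, jumu, had 218 and 235 CPM in PABP IP 1 and 2 and 96.6 and 102 CPM in input 1 and 2. It showed the smallest of the 5 rises, with a log2 fold change of 1.19 ± 0.10 SE (edgeR adjusted p = 1.25e-08). FoxP had the fewest reads of the 5, with 106 and 167 counts in the IP libraries and 20 and 23 in the input libraries. At 15.5 and 21.3 CPM the IP libraries differed more from each other, relative to their mean, than for the other tested members, but both lay above the input libraries at 6.10 and 5.07 CPM. The log2 fold change of FoxP was 1.74 ± 0.26 SE (edgeR adjusted p = 1.35e-05), and the ratio of summed counts was 3.38 with an exact 95% interval of 2.44 to 4.78.

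Markers of cell types in which these genes are best known were set beside them. Of 6 heart and nephrocyte markers, relevant to jumu and CHES-1-like, 4 of the 5 tested were lower in the IP, where 38.8% of all tested genes were, with summed levels of 24.6 to 25.5 CPM in the IP and 60.4 to 64.9 CPM in the input. One of the 4, tup, passed the count filter only through the input. Of 6 neuronal markers, relevant to FoxP, 1 of the 4 tested was lower and 0 were higher. Over all tested genes 38.8% were lower and 37.1% higher. The neuronal list summed to 121 to 163 CPM in the IP and 146 to 178 CPM in the input. In this list elav had at most 1 count and VAChT 0 counts in every library, so neither gives information here. For jumu, which also acts in blood cells, 5 of the 5 tested hemocyte markers were lower, where 38.8% of all tested genes were. The hemocyte list summed to 152 to 178 CPM in the IP and 661 to 798 CPM in the input. The part of these cell types in the results was not tested.

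The remaining 4 members could not be tested because they fell below the count filter. The visceral mesoderm factor bin had 1 and 2 counts in PABP IP 1 and 2 and 2 and 4 in input 1 and 2, or 0.266 times the input after scaling (exact 95% interval 0.0431 to 1.25). The segmentation gene slp1 had 7 and 1 counts in the IP and 3 and 6 in the input, a ratio of 0.473 (0.159 to 1.38). The groups overlapped for slp1, with PABP IP 1 between the input libraries in CPM. Its neighbour and paralog slp2, with no annotated gene between them, had 3 and 1 counts in the IP and 4 and 6 in the input. The ratio for slp2 was 0.213, with an interval of 0.0488 to 0.739 that lies below 1. In the edgeR fit without a count filter slp2 did not pass (log2 fold change -2.08, adjusted p = 0.0638), and neither did the other 3. The head gene croc had 0 and 2 counts in the IP and 2 and 0 in the input, and no fold is given for it. A count of 0 allows up to 3 counts, or 0.439 CPM in PABP IP 1 and 0.661 CPM in input 2. At this depth no difference was detectable for bin, slp1 and croc. That of slp2 rests on 4 summed counts in the IP and 10 in the input, and did not pass in DESeq2 either (adjusted p = 0.217). Muscle markers, relevant to bin, were lower in 5 of the 5 tested, where 38.8% of all tested genes were. The list summed to 899 to 1301 CPM in the IP and 4088 to 4268 CPM in the input. HLH54F, the visceral-muscle gene of that list, had at most 4 counts in any library.

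The order of the members by level differed between the groups. Levels of different genes were compared per length, as CPM per kb of gene span, and neighbours in the order were taken as separated where their means differed by more than the sum of their SDs. In the IP fkh stood first at 190.5 ± 7.50 CPM per kb (SD, n = 2), ahead of FoxK at 94.5 ± 4.85, jumu at 19.8 ± 1.08, CHES-1-like at 17.6 ± 1.13 and FoxP at 3.79 ± 0.844. The gap between jumu and CHES-1-like, 2.23 CPM per kb, barely exceeded the sum of their SDs, 2.21. In the input FoxK at 9.09 ± 0.177 and jumu at 8.67 ± 0.310 CPM per kb were first. They were not separated by this rule, though their libraries did not overlap. They were followed by fkh at 3.79 ± 0.0263, CHES-1-like at 2.89 ± 0.356 and FoxP at 1.15 ± 0.149. The 4 low genes stood last in both groups, between 0.0525 and 0.404 CPM per kb in the IP and between 0.130 and 0.785 in the input. Gene spans include introns, so the value of a gene with long introns is lowered where few reads fall in them. The lengths given with the counts were whole spans for these genes, so reads in introns may be among the counts. CHES-1-like has the longest span of the 9, at 27048 bases. Within the set, fkh moved from the third place in the input to the first in the IP by CPM per kb. In CPM without length, fkh in the input (16.2) lay below jumu (99.1), CHES-1-like (78.2) and FoxK (60.1). It was first in the IP by that measure too, at 817 CPM.

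**Figure D2:**
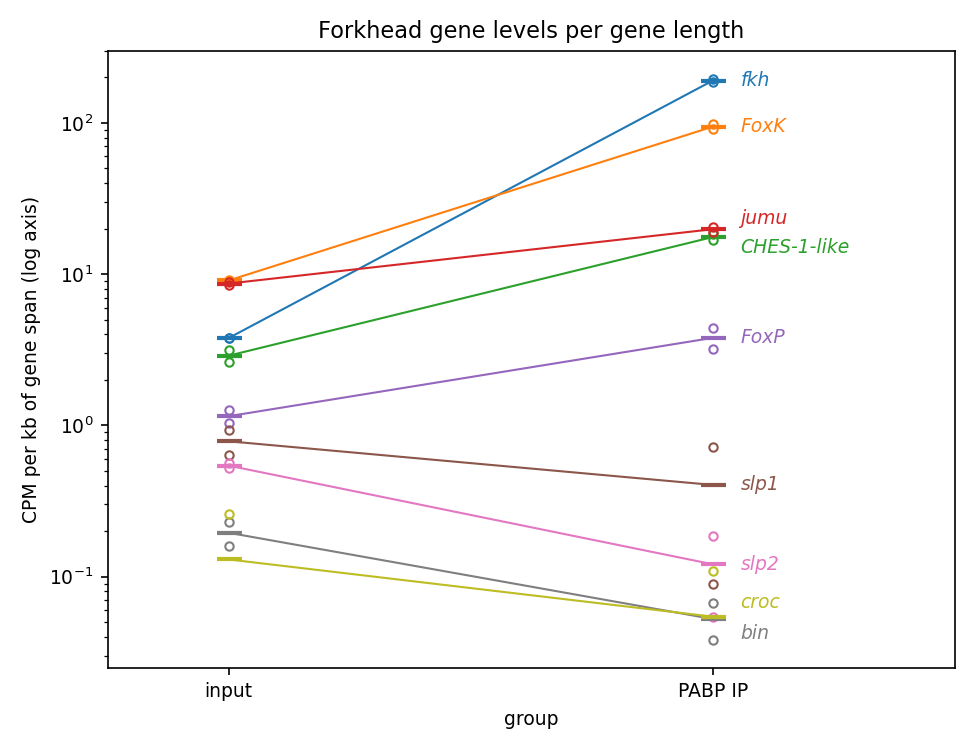
Level of each forkhead gene in CPM per kb of gene span (log axis) in the input and PABP IP groups; open points are libraries, bars are means of 2 libraries, and libraries with 0 counts (croc, 1 in each group) are not drawn but count in the mean. The line of fkh rises from 3.79 to 190.5 CPM per kb and crosses those of FoxK and jumu.

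Ratios between 2 genes within one library do not depend on how libraries are scaled. Per count of FoxK the IP libraries held 1.32 and 1.30 counts of fkh and the input libraries 0.265 and 0.275. This ratio was thus 4.84 times higher in the IP, and libraries of one group differed far less than the groups did. Per count of jumu there were 3.65 and 3.57 counts of fkh in the IP and 0.167 and 0.161 in the input, a 22.0-fold difference. Against CHES-1-like the difference was 8.21-fold, and against FoxP 15.5-fold. The 2 FoxN-class genes also changed unequally, with 2.09 and 2.11 counts of CHES-1-like per count of jumu in the IP and 0.880 and 0.703 in the input. The ratio of FoxP to jumu was the least different, at 0.0711 and 0.0905 in the IP and 0.0631 and 0.0499 in the input. As shares of the reads of the 9 genes, fkh took 38.1% (95% Wilson interval 37.3 to 38.9) and 37.5% (36.7 to 38.2) in the IP libraries and 6.02% (4.63 to 7.79) and 6.34% (5.08 to 7.89) in the input libraries. The share of jumu moved the other way, from 36.0% (32.9 to 39.2) and 39.5% (36.7 to 42.3) in the input to 10.4% (9.95 to 10.96) and 10.5% (10.05 to 10.96) in the IP. For FoxK the shares were 28.9% in both IP libraries and 22.7% and 23.1% in the input.

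**Figure D3:**
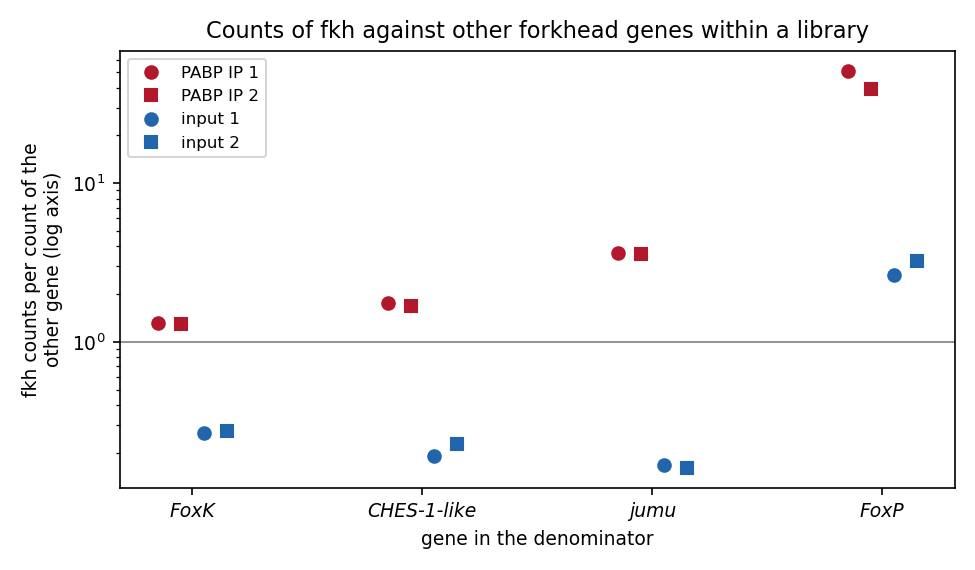
Counts of fkh per count of FoxK, CHES-1-like, jumu and FoxP in each library (log axis; red PABP IP, blue input; the grey line marks equal counts). In the IP every ratio lies above 1, and each pair of red points lies above the pair of blue points, by 4.84-fold for FoxK and 22.0-fold for jumu.

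The size of a fold change, as opposed to these ratios, moved with the scaling of the libraries, as did the zero point of all genes. Over all tested genes the log2 fold changes had a median of -0.10 with TMM factors, -0.71 with upper-quartile factors, -0.59 with the authors' size factors and -0.95 with library size alone. Calls over all genes were 48.9% higher with TMM, 31.0% with upper-quartile factors, 33.8% with the authors' factors and 25.8% with library size alone. With library size alone, where 22.1% of all tested genes were called higher, the 5 members were still higher, fkh by 4.80, FoxK by 2.53, CHES-1-like by 1.76, FoxP by 0.89 and jumu by 0.34 on the log2 scale. The shift was of similar size for the 5 genes, so it took the largest share of the small rise of jumu, which was 0.58 with upper-quartile and 0.69 with the authors' factors and still passed with library size alone (edgeR adjusted p = 0.00493). The authors' deposited table gives log2 fold changes of 5.16 for fkh, 2.88 for FoxK, 2.11 for CHES-1-like, 1.24 for FoxP and 0.69 for jumu, with adjusted p-values of 9.72e-56, 2.29e-89, 1.20e-19, 0.00154 and 0.0245. Of the genes with an adjusted p in the authors' deposited table, 21.3% were higher below 0.05, and bin, slp1, slp2 and croc were not below it.

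**Figure D4:**
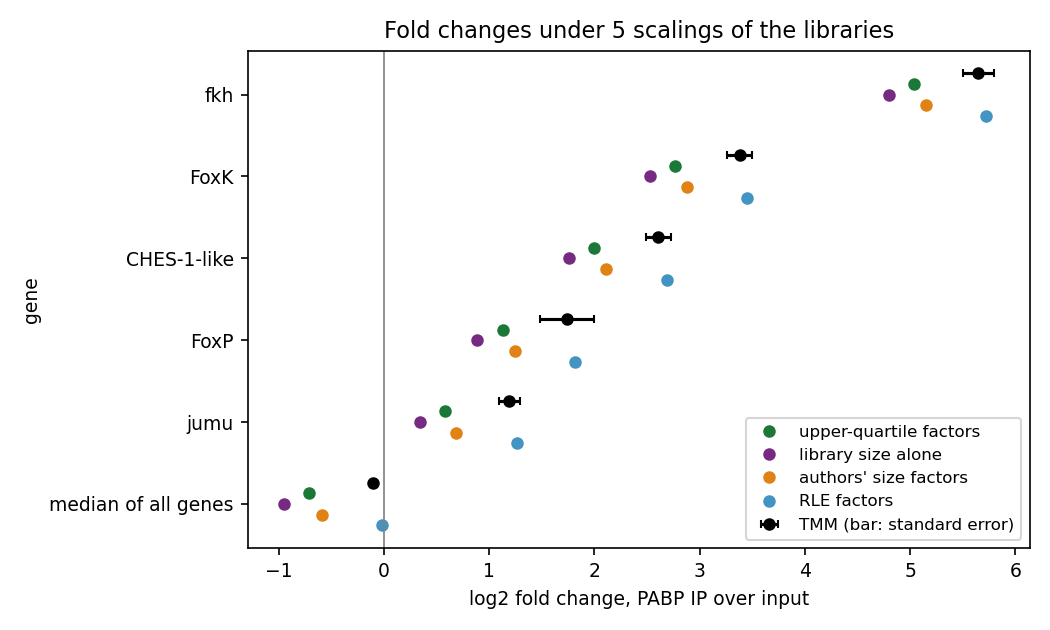
Log2 fold change of PABP IP over input for the 5 tested forkhead genes and the median of all tested genes, with each colour 1 of 5 scalings of the libraries; bars on the black TMM points are standard errors. All points of the 5 genes lie above 0, those of jumu lowest at 0.34 with library size alone, while the median of all genes moves from -0.02 to -0.95.

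Of 9 further forkhead genes only foxo, the insulin-responsive FoxO factor, had enough reads to test. It had 350 and 380 CPM in PABP IP 1 and 2 and 94.2 and 95.5 CPM in input 1 and 2, a log2 fold change of 1.94 ± 0.11 SE (edgeR adjusted p = 3.28e-11), between those of CHES-1-like and FoxP. The other 8 genes, fd59A, FoxL1, fd3F, fd19B, fd102C, fd96Ca, fd96Cb and CG32006, had at most 5 counts in any library, and fd19B had 0 in all 4. For fd59A the IP libraries held 0 counts and the input libraries 1 and 4, with an exact 95% interval of 0 to 0.581 for the IP to input ratio.

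Of 26 genes tied to these factors by fly genetics 18 could be tested, and 11 of them were called higher, 2 lower and 5 not called, where 37.1% of all tested genes were called higher and 38.8% lower. With library size alone 8 of the 18 were called higher, where 22.1% of all tested genes were. The genes D, sens, Hand and wg passed the count filter through the input alone. The median log2 fold change of the 18 tested linked genes was 1.05, against -0.10 over all genes. The linked list was chosen with earlier results of these data known, so its counts and median are no independent check. Of the genes that act with fkh in the salivary gland, CrebA, a regulator of secretory capacity, was 31.4-fold higher (log2 4.97 ± 0.15 SE, edgeR adjusted p = 2.91e-14). The cell death gene hid, which fkh represses in that gland, rose by 3.04 ± 0.18 SE and the gland's transcription factor gene sage by 1.82 ± 0.33 SE on the log2 scale, while sens was not called (-0.03 ± 0.51 SE). The gland's prolyl hydroxylase genes had few reads, PH4alphaSG2 with 0 counts in both IP libraries and PH4alphaSG1 with at most 4 in any library. Sgs3 and Sgs4 had 0 counts in all libraries, but they encode larval glue proteins and give no information on adult flies. Of the 6 salivary gland markers 2 of the 3 tested were higher, where 37.1% of all tested genes were. The list summed to 663 to 776 CPM in the IP and 28.2 to 28.3 CPM in the input. This sum was mostly CrebA, at 652 and 764 CPM in the IP. The part of salivary gland RNA in the fkh result was not tested.

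Among genes tied to bin, the tubulin gene betaTub60D was 27.3-fold higher (log2 4.77 ± 0.14 SE, edgeR adjusted p = 3.66e-14), with 1812 and 1769 CPM in the IP and 64.6 and 66.6 CPM in the input. The muscle factor gene Mef2 rose by 1.03 ± 0.11 SE on the log2 scale, and dpp (0.36 ± 0.19 SE) and Hand (-0.26 ± 0.49 SE) were not called. The corepressor gene gro, which works with slp1 and slp2, rose by 3.10 ± 0.12 SE and the homeobox cofactor gene hth by 0.93 ± 0.15 SE, while the Sox gene D, which entered the test only through the input, where it was higher, fell by 1.15 on the log2 scale (edgeR adjusted p = 0.0164). The eye gene ey (0.57 ± 0.33 SE) and the Wnt gene wg (-1.38 ± 0.66 SE) were not called. The homeobox gene lab, which depends on FoxK in the embryonic midgut, rose by 2.61 ± 0.39 SE and the BMP effector gene Mad by 1.68 ± 0.11 SE. Of the genes tied to jumu and CHES-1-like, the Wnt receptor genes fz2 and fz rose by 3.71 ± 0.12 SE and 1.06 ± 0.16 SE, and the mitotic kinase gene polo fell by 0.98 on the log2 scale (edgeR adjusted p = 3.18e-07). The rises of Mef2 (0.18), hth (0.07) and fz (0.20) were not called with library size alone, nor that of hth with upper-quartile factors (0.31). The fall of D was not called without PABP IP 1 (-1.01), without input 2 (-0.79) or in DESeq2 (-1.03).

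**Figure D5:**
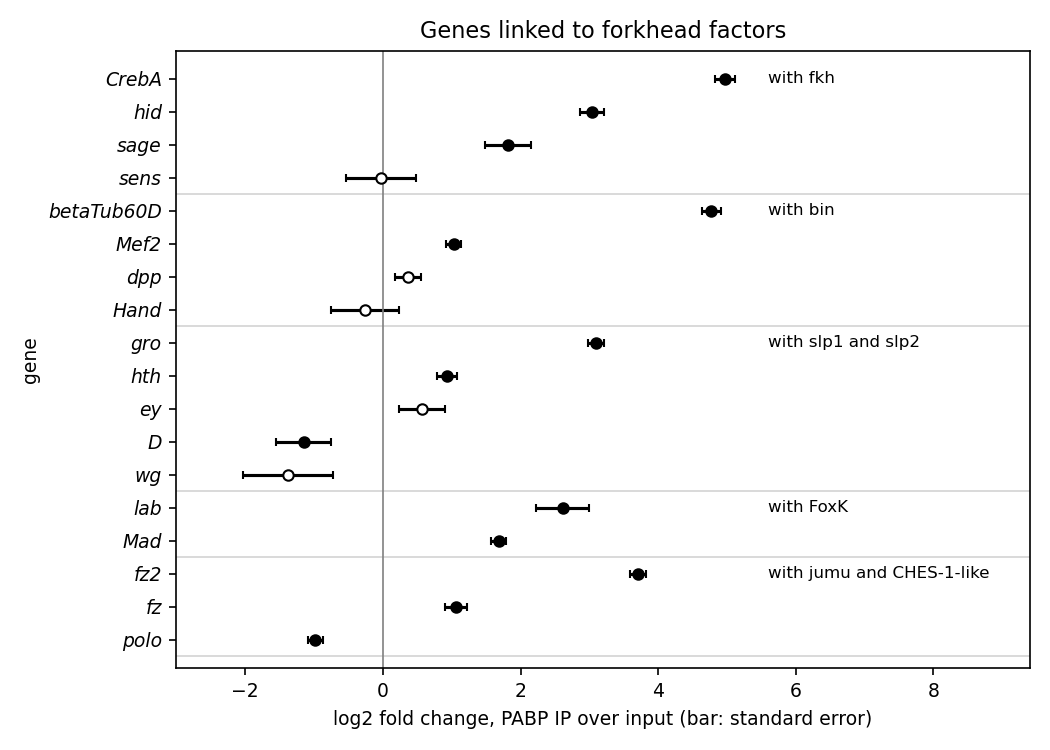
Log2 fold change of PABP IP over input, with its standard error as a bar, for the 18 tested genes linked to forkhead factors, grouped by factor; filled points passed an adjusted p of 0.05 and open points did not. CrebA and betaTub60D lie farthest to the right, at 4.97 and 4.77, and D and polo are the called genes below 0.

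By Euclidean distance of log2 CPM over the 4 libraries, the genes nearest to fkh were CG32369 at 0.446, CG12290 at 0.496 and Socs36E, an inhibitor gene of JAK/STAT signalling, at 0.594. Their log2 fold changes were 5.65 ± 0.16, 5.23 ± 0.14 and 5.08 ± 0.15 (SE). With 2 libraries in each group this distance mainly records the level in IP and input.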

How the data were processed

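Counts are the authors' deposited whole-number read counts per gene. The submitters' processing notes list STAR 2.7.3a, cutadapt 2.9, featureCounts, Subread 2.0.0, DESeq2 and SAMtools 1.10. Settings, strandedness and build were not found there, so no coordinates are printed. The length column equalled the RefSeq gene span, introns included, for 99.6% of 17736 matched genes. A row with no gene name, at most 0.000418% of a library, was left out. The authors' deposited DESeq2 table holds log2 fold changes, p-values and a Wald score, and a signal equal to the counts over 1 size factor per library. Its base mean was within 1% of the mean of its 4 library columns for 146 of 12248 genes, and which libraries entered that fit is not given.

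Counts were fitted over all genes with edgeR 4.0.16 in R 4.3.3 (filterByExpr, minimum count 10; TMM; quasi-likelihood test, two-sided; Benjamini-Hochberg at 0.05). The SE is the log2 fold change divided by the root of the F statistic. CPM uses the TMM library size. The code was tested on simulated counts. Libraries of a group differed by more than counting error (chi-square over its degrees of freedom, 7.48 in the IP and 2.74 in the input). Each counted as 1 replicate, but this value cannot show whether they came from separate extracts. Members and lists were chosen with earlier results of these data known. The text names all members, the other forkhead genes, called genes of the linked list (up to 4 for each factor, by lowest p), pAbp and the 3 genes nearest to fkh (prior count 0.5). Marker lists are given by counts and sums. Linked genes that were not called and single markers were named after their values were seen. Alternatives were RLE, upper-quartile and library-size scaling, other filters, DESeq2 1.42.0, limma-voom (limma 3.58.1), a replicate block, an adjusted p of 0.01 and leaving out each library. The authors' size factors were added after the data were seen.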

Additional observations from a re-analysis of the deposited data

How the results depend on the processing

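The 5 tested members were called higher under each of the 14 alternatives, 70 values in all, with log2 fold changes of 4.80 to 5.76 for fkh, 2.53 to 3.48 for FoxK, 1.76 to 2.73 for CHES-1-like, 0.89 to 1.97 for FoxP and 0.34 to 1.30 for jumu. The lowest of each came with library size alone. The 4 low members were called in neither direction without a count filter. Over all genes, 3708 calls were higher and 3873 lower, against 2210 and 6343 with library size alone, and 2521 were lower in DESeq2. Of the linked genes 11 were called higher, with 8 to 12 over the alternatives, and 2 lower, against 5 with library size alone and 1 with a minimum count of 30, in DESeq2 or at an adjusted p of 0.01. Leaving out each library gave 1 to 2. Of the other forkhead genes 1, fd59A, was called lower without a count filter (adjusted p = 0.0388). The cause of these shifts was not tested. With the replicate number as a block, 3660 genes were higher and 3817 lower, and the log2 fold change of fkh was 5.65; no call of a member changed. Deviations of same-numbered libraries correlated at -0.09 across genes, so the numbers were not taken as pairs. Levels per kb of coding sequence were not run. Depth limits bin, slp1, slp2 and croc most.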
